A study of Macaca mulatta with 8 samples.

Results

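The transcripts examined here encode the 5 subunits of the transcription factor NF-kB (NFKB1, NFKB2, REL, RELA and RELB) and proteins of the IkB family (NFKBIA, NFKBIB, NFKBIE, NFKBIZ and BCL3). The latter are called inhibitors here as a group name only, since NFKBIZ and BCL3 encode nuclear members of the family. The transcripts were taken as the rows of the deposited count files that carry these gene symbols. Of the 10 symbols, 9 have a row among the 35432 genes of the files, 5 for subunits and 4 for inhibitors, and no row carries the symbol NFKBIZ. All 9 passed the filter on low counts, which kept 12131 genes. The cells were primary microglia, the macrophages of the brain, isolated from subcortical white matter of 4 adult rhesus macaques. The donors were the males R07110, 13 years old, and R12016, 9 years old, and the females R02046, 19 years old, and R14143, 6 years old. Cells of each donor were cultured for 8 days with the growth factor M-CSF. On day 7 they received 10 µg/mL uLPS, an ultrapure lipopolysaccharide that activates Toll-like receptor TLR4, for 16 h, either alone (uLPS) or after 1 h with 5 µM MRS2578 (uLPS + MRS2578). MRS2578 is an antagonist of P2RY6, a purinergic receptor for extracellular UDP. The study describes it as selective but not fully specific, and effects through other targets were not tested here. Every library thus comes from cells exposed to uLPS, and no library of unexposed cells or of MRS2578 alone was analysed here, so the comparison concerns the levels of NF-kB transcripts 16 h into the response and not their induction.

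NF-kB proteins act as dimers. In resting cells the IkB proteins of the cytoplasm hold most of these dimers there. After a Toll-like receptor is engaged, an IkB kinase complex marks these inhibitors for breakdown, and the freed dimers enter the nucleus and switch on genes of inflammation. Several genes of the system, among them NFKB1, NFKB2, REL, RELB, NFKBIA and BCL3, are themselves textbook targets of NF-kB, so a transcript level reads the feedback within the system as well as the supply of protein. Dimer binding, breakdown of the inhibitors, and the processing of the NFKB1 and NFKB2 precursors into their short forms happen at the protein level and are not seen in RNA counts.

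The DNA before the start of 9 of the 10 genes was read from the NCBI annotation of the macaque genome Mmul_10, as the 250 bases before the 5′ end of the gene. Both strands were searched for GGGNNNNNCC, a loose description of an NF-kB site, and for the kB consensus, a stricter one whose every match also holds the loose motif. The loose motif was in 54.7% of the 20782 windows of protein-coding genes and the consensus in 4.93%. Of these 9 genes, NFKBIA had 1 match to the consensus, and its window is shown, with the match in capitals, because it is the only one of the 9 with this feature. A match describes the letters only.
NFKBIA, chr7:97479222-97479471, minus strand: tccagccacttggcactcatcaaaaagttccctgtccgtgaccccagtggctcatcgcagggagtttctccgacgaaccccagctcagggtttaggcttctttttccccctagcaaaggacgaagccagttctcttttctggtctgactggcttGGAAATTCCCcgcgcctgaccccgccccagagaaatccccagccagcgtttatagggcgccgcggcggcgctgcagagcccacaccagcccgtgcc
The match GGAAATTCCC, which reads as the consensus on the opposite strand, began 96 bases before the gene. The windows of the other 8 genes held no match to the consensus, which says only that these letters are not in those windows. In Mmul_10, NFKBIA spans chr7:97475994-97479221 on the minus strand, and NFKB1 and NFKB2, the precursor genes, span chr5:100887542-101010961 and chr9:102917067-102922388 on the plus strand. RELA is at chr14:8860675-8870779 (plus), REL at chr13:47895092-47937123 (minus) and NFKBIE at chr4:125063907-125071778 (plus). The other members, NFKBIB (chr19:38151430-38163425), BCL3 (chr19:44787229-44799071) and RELB, lie on the plus strand of chromosome 19.

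One donor's labels need to be stated before the values. The study's supplement holds a normalized expression table of the same 8 libraries, and each of its 8 columns was compared with the deposited counts. For 6 columns the match was the library with the same donor and condition, and for the 2 columns of R02046 it was the library with the other condition. Which assignment is right cannot be told from this match alone. The deposited labels were used as the main assignment, and the fitted changes and the summaries of abundance are given also with the R02046 libraries exchanged and without R02046. Total counts ran from 9231109, in the R02046 library labelled uLPS, to 32790348. Of 13 marker genes of microglia and macrophages 12 have a row, and their summed level was 4451 to 5365 CPM, counts scaled to the library's total count, with uLPS and 4058 to 5220 CPM with uLPS + MRS2578. TMEM119, a marker of resting microglia, was under 1 CPM in every library. Markers of oligodendrocytes summed to 61.7 to 75.8 CPM over both conditions, of astrocytes to 45.9 to 151 CPM, of endothelial and mural cells to 157 to 295 CPM, and those of lymphocytes and neurons each to at most 0.640 CPM. The oligodendrocyte markers MOG, CLDN11 and OLIG2 and the endothelial and mural markers CLDN5, CDH5 and RGS5 were under 1 CPM in every library. The sums of those lists thus rest on their other genes, while no astrocyte marker was under 1 CPM throughout. The part of these other cells in the results was not tested. In RNA from whole cultures, fewer cells of a type and less RNA per cell cannot be told apart.

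Transcript abundance was first compared between subunits and inhibitors. CPM values, scaled between libraries by TMM, were divided by the length of the merged exons in kb so that genes could be set side by side. NFKBIA, which encodes IkBα, the inhibitor that is resynthesised fastest after NF-kB activation, had the highest level, at 272 ± 57.7 CPM per kb with uLPS (SD, n = 4) and 220 ± 15.3 with uLPS + MRS2578 (SD, n = 4). Its lowest library with uLPS, at 199 CPM per kb, lay above the highest of any subunit, the 111 CPM per kb of NFKB1. Among subunits, NFKB1, the source of p105 and p50, followed at 83.4 ± 24.7 CPM per kb with uLPS, and NFKB2, the source of p100 and p52, at 58.0 ± 19.4 (SD, n = 4 each).

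The other inhibitors were interleaved with the other subunits. With uLPS, mean levels were 42.4 CPM per kb for NFKBIE (IkBε), 40.1 for RELA (p65, the main activating subunit of the canonical pathway), 34.2 for NFKBIB (IkBβ), 30.4 for RELB (the partner of p52 in the non-canonical pathway) and 30.0 for BCL3, an atypical nuclear member of the family that binds p50 and p52. REL (c-Rel, a second activating subunit) was lowest at 15.9 ± 9.81 CPM per kb (SD, n = 4). From NFKB1 down to REL, the ranges of each pair of neighbours in this order overlapped across donors with uLPS, so only the place of NFKBIA stood apart. With uLPS + MRS2578 the ranges over donors were narrower for all members but NFKBIB, and NFKBIA, NFKB1 and REL each lay outside the range of their neighbours.

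**Figure D1:**
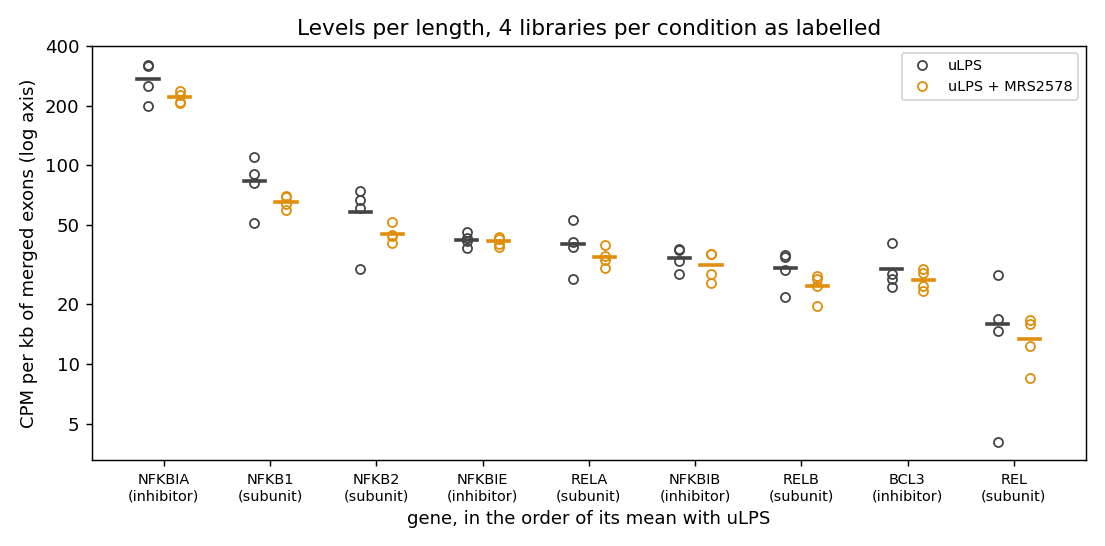
Level of each gene in CPM per kb of merged exons (log axis), with 1 open circle per library and a bar at the mean of 4 donors, for uLPS (grey) and uLPS + MRS2578 (orange) as labelled. NFKBIA lies above all other genes in both conditions, at means of 272 and 220, and REL lies lowest, at means of 15.9 and 13.3.

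Summed over members, the inhibitors exceeded the subunits in every library, almost wholly through NFKBIA. The ratio of summed subunit to summed inhibitor levels was 0.592 ± 0.107 with uLPS and 0.575 ± 0.0371 with uLPS + MRS2578 (SD, n = 4 each). NFKBIA made up 71.5% ± 2.96 of the inhibitor sum with uLPS, while NFKB1 made up 36.8% ± 1.09 of the subunit sum (SD, n = 4 each). Taking medians over members in place of sums, the ratio was 1.03 ± 0.220 with uLPS and 0.939 ± 0.101 with uLPS + MRS2578 (SD, n = 4 each), so the typical subunit and the typical inhibitor differed by less than the spread between donors. After the exchange the ratio of medians was 1.05 ± 0.183 and 0.916 ± 0.136, and the ratio of sums 0.612 ± 0.0748 and 0.555 ± 0.0719 (SD, n = 4 each), with uLPS and with uLPS + MRS2578. Without R02046 the ratio of medians was 1.12 ± 0.143 and 0.972 ± 0.0935, and the ratio of sums 0.638 ± 0.0672 and 0.588 ± 0.0324 (SD, n = 3 each). Within donors, the ratio of sums was 0.641 with uLPS and 0.575 with uLPS + MRS2578 in R07110, 0.703 and 0.625 in R12016, 0.569 and 0.565 in R14143, and 0.455 and 0.536 in R02046. It was thus lower with the antagonist in 3 donors, by a small margin in R14143, and higher in R02046 as labelled. The ratio of NFKB1 to NFKBIA was 0.303 ± 0.0405 with uLPS and 0.298 ± 0.0126 with uLPS + MRS2578 (SD, n = 4 each) as labelled. It was 0.316 ± 0.0276 and 0.285 ± 0.0211 after the exchange (SD, n = 4 each), and 0.318 ± 0.0332 and 0.295 ± 0.0128 without R02046 (SD, n = 3 each). These SDs are between donors. Within donors, the NFKB1 to NFKBIA ratio was 0.322 with uLPS and 0.285 with uLPS + MRS2578 in R07110, and 0.349 and 0.309 in R12016. It was 0.283 and 0.289 in R14143, and 0.258 and 0.309 in R02046 as labelled. The ratio thus fell in R07110 and R12016 and rose slightly in R14143. No test was made of these ratios.

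The difference of each transcript between uLPS + MRS2578 and uLPS was then examined within donors. In a fit of all genes by edgeR (quasi-likelihood, blocked by donor), no member passed an adjusted p of 0.05, with deposited labels, with the R02046 libraries exchanged or without R02046. Across all genes, this threshold was passed by 0.0% of 12131 genes as labelled (624 genes had an unadjusted p under 0.05, DESeq2 called 1 and edgeR's likelihood ratio test 5), by 0.618% after the exchange, and by 0.0% of 12295 genes without R02046, where 1670 had an unadjusted p under 0.05. The fitted log2 fold change of uLPS + MRS2578 over uLPS was below 0 for all 9 members under each of the 3 assignments. Over all genes it was below 0 for 52.1% as labelled, 49.8% after the exchange and 50.5% without R02046. The 3 assignments rest largely on the same libraries, and the values below show how far each donor contributed.

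NFKB1 was at 372, 507, 235 and 413 CPM with uLPS in R07110, R12016, R02046 and R14143, and at 272, 291, 320 and 316 CPM with uLPS + MRS2578 in the same order of donors. NFKB2, in the same order, was at 136, 166, 66.9 and 148 CPM with uLPS and at 99.0, 98.3, 90.5 and 115 CPM with uLPS + MRS2578. Both precursor genes were lower with the antagonist in 3 donors and higher in R02046, whose library labelled uLPS was the lowest of all 8 for both genes. The fitted log2 fold change was -0.30 (SE 0.20, 95% confidence interval -0.77 to 0.16) for NFKB1 and -0.29 (SE 0.19, -0.73 to 0.15) for NFKB2, each with an edgeR adjusted p of 0.881. With the R02046 libraries exchanged, the values were -0.52 (SE 0.10, edgeR adjusted p = 0.0628) and -0.50 (SE 0.09, edgeR adjusted p = 0.0629), and without R02046 they were -0.55 (SE 0.12) and -0.52 (SE 0.11), each with an edgeR adjusted p of 0.180.

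REL was at 31.7, 60.2, 8.75 and 36.4 CPM with uLPS and at 26.5, 35.7, 18.3 and 34.1 CPM with uLPS + MRS2578, in the same order of donors. Both R02046 libraries were below all other libraries for REL, and the value of 8.75 CPM rests on only 82 reads, the fewest behind any member. REL differed most between donors of all members, 6.88-fold from the lowest to the highest uLPS library. That value rests on the R02046 library labelled uLPS, and it was 3.29-fold after the exchange and 1.90-fold without R02046. Its fitted log2 fold change of -0.06 (SE 0.27, edgeR adjusted p = 0.986) was -0.50 (SE 0.16, edgeR adjusted p = 0.187) after the exchange and -0.37 (SE 0.15, edgeR adjusted p = 0.379) without R02046. This gene's value therefore depended most on the labels of that donor.

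RELA was at 112, 144, 72.5 and 105 CPM with uLPS and at 94.7, 108, 82.7 and 90.4 CPM with uLPS + MRS2578. Its within-donor differences were small and even in the 3 other donors, from -0.42 to -0.22 log2 units, and 0.19 in R02046. RELB was at 67.6, 78.7, 49.8 and 80.8 CPM with uLPS and at 63.5, 60.8, 56.3 and 44.8 CPM with uLPS + MRS2578. Unlike the other subunits, RELB had its largest difference in R14143, at -0.85, against -0.09 in R07110. The fitted log2 fold changes were -0.17 (SE 0.12, edgeR adjusted p = 0.883) for RELA and -0.29 (SE 0.17, edgeR adjusted p = 0.878) for RELB, and after the exchange -0.27 (SE 0.08, edgeR adjusted p = 0.178) and -0.37 (SE 0.13, edgeR adjusted p = 0.223). Without R02046 they were -0.29 (SE 0.10, edgeR adjusted p = 0.296) and -0.44 (SE 0.16, edgeR adjusted p = 0.328).

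**Figure D2:**
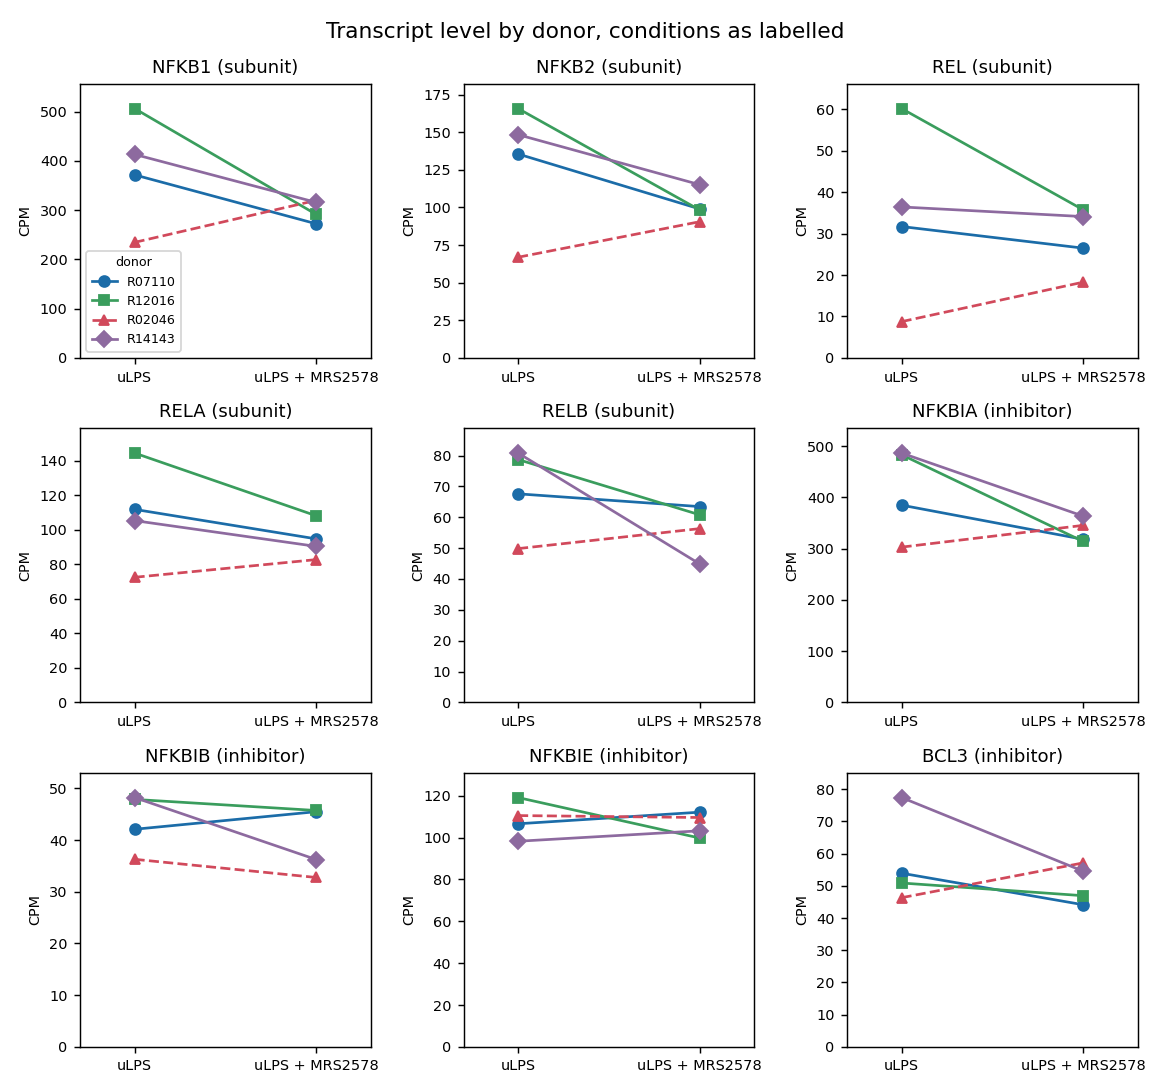
Level of each of the 9 genes in CPM (linear axis from 0) with uLPS and with uLPS + MRS2578, 1 line per donor, conditions as labelled, R02046 dashed. For all 5 subunits the lines of R07110, R12016 and R14143 go down and the line of R02046 goes up. The lines of NFKBIB and NFKBIE do not follow this pattern.

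Among the inhibitors, NFKBIA was at 385, 483, 303 and 487 CPM with uLPS in R07110, R12016, R02046 and R14143, and at 318, 314, 346 and 364 CPM with uLPS + MRS2578. It shared the pattern of the subunits, with lower levels in 3 donors and a higher one in R02046. Its fitted log2 fold change was -0.28 (SE 0.15, 95% confidence interval -0.63 to 0.06, edgeR adjusted p = 0.878), -0.38 (SE 0.10, edgeR adjusted p = 0.123) after the exchange, and -0.44 (SE 0.11, edgeR adjusted p = 0.211) without R02046. BCL3 was at 53.9, 50.9, 46.3 and 77.4 CPM with uLPS and at 44.1, 46.9, 57.1 and 54.5 CPM with uLPS + MRS2578, again lower in all donors but R02046. Its fitted log2 fold change was -0.16 (SE 0.14, edgeR adjusted p = 0.906), -0.30 (SE 0.10, edgeR adjusted p = 0.183) after the exchange, and -0.31 (SE 0.12, edgeR adjusted p = 0.339) without R02046.

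The other IkB genes, NFKBIB and NFKBIE, did not share the direction of the subunits in each donor. NFKBIE was at 107, 119, 111 and 98.3 CPM with uLPS and at 112, 99.8, 110 and 103 CPM with uLPS + MRS2578. Its highest library was 1.21-fold its lowest with uLPS and 1.12-fold with uLPS + MRS2578, the smallest such folds among the members as labelled. Its fitted log2 fold change was -0.03 (SE 0.10, 95% confidence interval -0.26 to 0.20, edgeR adjusted p = 0.973) as labelled and -0.02 (SE 0.09, edgeR adjusted p = 0.923) after the exchange, and -0.04 (SE 0.11, edgeR adjusted p = 0.916) without R02046, so the labels of R02046 hardly bore on it. NFKBIB was at 42.1, 47.9, 36.3 and 48.2 CPM with uLPS and at 45.5, 45.7, 32.8 and 36.2 CPM with uLPS + MRS2578. It was lower with the antagonist in R12016, R02046 and R14143 and higher in R07110, with a fitted log2 fold change of -0.13 (SE 0.12, 95% confidence interval -0.40 to 0.15, edgeR adjusted p = 0.906). The value was -0.06 (SE 0.12, edgeR adjusted p = 0.853) after the exchange and -0.12 (SE 0.13, edgeR adjusted p = 0.753) without R02046. In the NCBI annotation NFKBIB overlaps SIRT2 and NFKB1 overlaps uncharacterised loci, all on the opposite strand. REL overlaps an uncharacterised locus on its own strand, which no strand setting would separate. The strand setting of the counting is not stated, and the counts are per Ensembl gene. The share of these counts that belongs to the overlapping genes is thus uncertain.

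**Figure D3:**
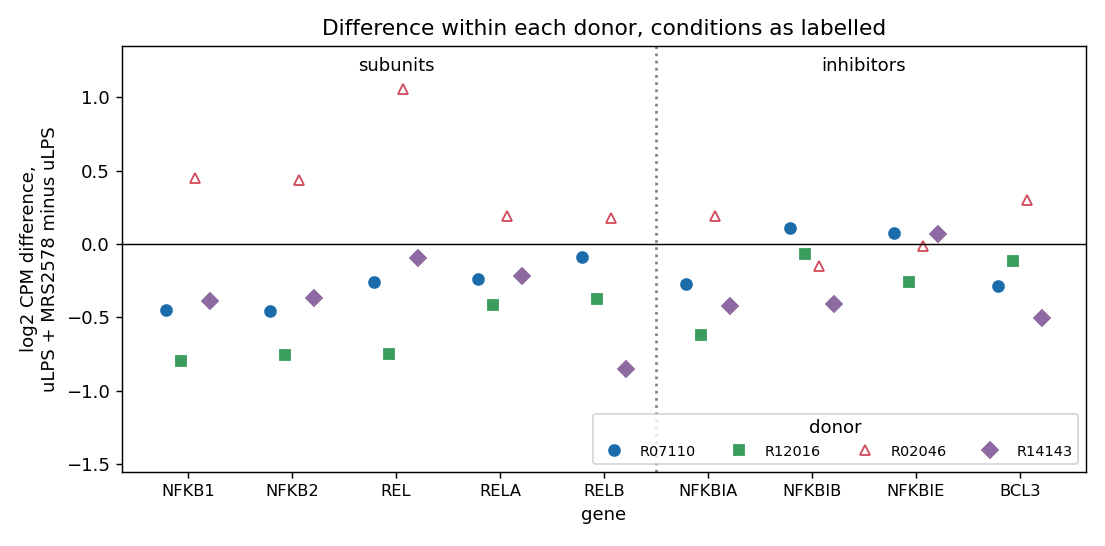
Difference in log2 CPM (uLPS + MRS2578 minus uLPS) for each gene in each donor, conditions as labelled, with subunits to the left and inhibitors to the right of the dotted line and R02046 as open triangles. The 5 subunits lie below 0 in 3 donors and above 0 in R02046, where REL reaches 1.05, and NFKBIE lies within -0.26 to 0.07.

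Subunits and inhibitors were compared by their medians, which are descriptions without a test. Over the 5 subunits the median fitted log2 fold change was -0.29, and over the 4 inhibitors -0.14, beside -0.01 over all genes tested. After the exchange the medians were -0.50 and -0.18, and without R02046 -0.44 and -0.21, with 0.00 and -0.00 over all genes. Within donors, the median difference in log2 CPM was -0.26 for subunits and -0.10 for inhibitors in R07110, -0.75 and -0.19 in R12016, -0.37 and -0.42 in R14143, and 0.44 and 0.09 in R02046. The subunits were thus further from 0 than the inhibitors in R07110, R12016 and R02046, but not in R14143. Among the inhibitors, NFKBIA and BCL3 followed the subunits in their direction in each donor, and NFKBIB and NFKBIE did not. This grouping was made after the values were seen and was not tested. In size, the fitted changes as labelled lay close together for BCL3, at -0.16 (SE 0.14), and NFKBIB, at -0.13 (SE 0.12).

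Counts of members by direction were set beside the same counts over all genes. As labelled, 0 of 9 members were lower with MRS2578 in all 4 donors (6.49% of all genes), and 0 of 9 had every uLPS + MRS2578 library below every uLPS library (0.412% of all genes). With the R02046 libraries exchanged, 7 of 9 were lower in all 4 donors (13.2% of all genes), namely the 5 subunits, NFKBIA and BCL3, but the conditions were free of overlap only for NFKB1, 1 of 9 (1.56% of all genes). In the 3 other donors alone, the same 7 of 9 were lower in each donor (19.8% of all genes), and 4 of 9 had no overlap between conditions (5.51% of all genes), namely NFKB1, NFKB2, RELB and NFKBIA. At an unadjusted p under 0.05, 0 of 9 members were lower as labelled (2.44% of all genes), 7 of 9 after the exchange (9.59%) and 6 of 9 without R02046 (7.86%). With 4 donors an exact sign-flip test of 1 gene cannot give a two-sided p below 0.125, and with 3 donors not below 0.25.

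**Figure D4:**
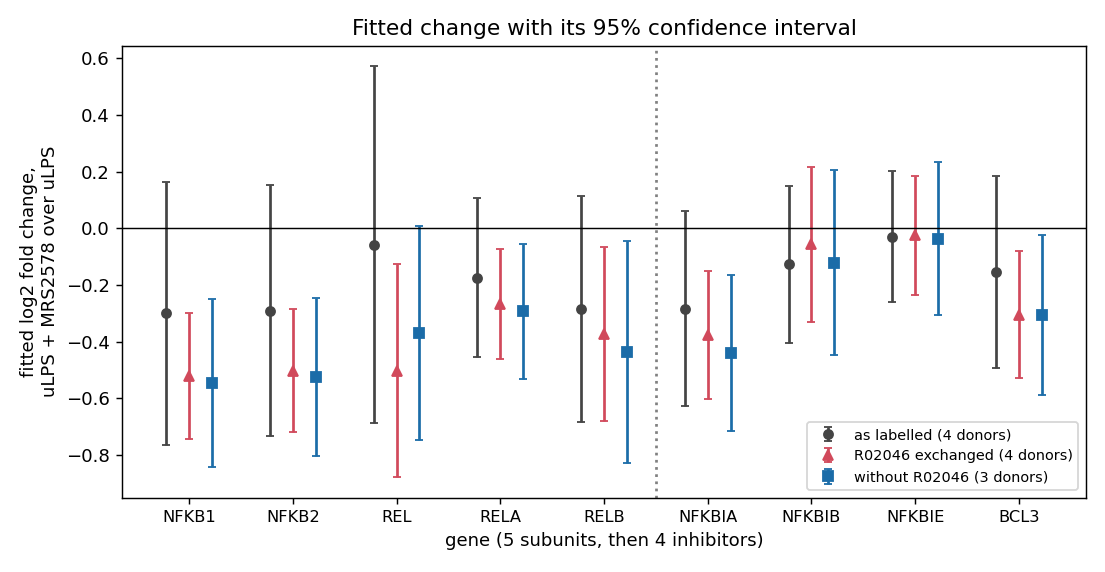
Fitted log2 fold change (uLPS + MRS2578 over uLPS) of each gene from edgeR with the donor as a block, with its 95% confidence interval, as labelled (grey circles), with the R02046 libraries exchanged (red triangles) and without R02046 (blue squares). The intervals of all 9 genes include 0 as labelled, and those of NFKBIB and NFKBIE include it under all 3 assignments, as does that of REL without R02046.

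NFKBIZ encodes IkBζ, a nuclear protein of the IkB family that Toll-like receptor signals induce. No row carries its symbol, but a row with the symbol NXPE3 has an Ensembl identifier that the study's supplement annotates as NFKBIZ. In the NCBI annotation of Mmul_10 these are neighbouring genes on the minus strand of chromosome 2, NFKBIZ at 174285683 to 174296972 and NXPE3 at 174323787 to 174365577, and it cannot be told from the counts which gene's reads the row holds. The row was therefore kept apart from the members. It was at 203, 280, 102 and 333 CPM with uLPS and at 153, 169, 132 and 211 CPM with uLPS + MRS2578 in R07110, R12016, R02046 and R14143, lower in 3 donors and higher in R02046 like the subunits. The fitted log2 fold change was -0.36 (SE 0.19, edgeR adjusted p = 0.878), -0.55 (SE 0.09, edgeR adjusted p = 0.0526) after the exchange and -0.60 (SE 0.11, edgeR adjusted p = 0.152) without R02046.

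Other genes of the pathway were described in the same way. Of 22 kinases and regulators of NF-kB activation, 12 had a fitted log2 fold change below 0 as labelled (52.1% of all genes) and 10 above 0. None passed an adjusted p of 0.05 in edgeR as labelled, while 1 was lower and 1 higher at an unadjusted p under 0.05. After the exchange 6 were lower and 3 higher at that level, and without R02046 5 were lower and 1 higher. The shares of all genes lower at that level are those given for the members, and the shares higher were 2.7% as labelled, 6.86% after the exchange and 5.73% without R02046. MAP3K14, the NF-kB-inducing kinase of the non-canonical pathway, was higher with MRS2578 in all 4 donors, at 0.77 (SE 0.24, edgeR adjusted p = 0.878) as labelled. After the exchange it was higher in 3 of 4 donors, at 0.66 (SE 0.26, edgeR adjusted p = 0.265), and without R02046 in 3 of 3, at 0.92 (SE 0.25, edgeR adjusted p = 0.230). TANK, an adaptor that binds TRAF proteins and the kinase TBK1, was at -0.57 (SE 0.22, edgeR adjusted p = 0.878) as labelled. It fell after the exchange, by 0.74 on the log2 scale (SE 0.11, edgeR adjusted p = 0.043), and was at -0.86 (SE 0.09, edgeR adjusted p = 0.123) without R02046. It was the only gene of the regulator list to pass under any of the 3 assignments.

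Of 18 textbook NF-kB target genes, 16 had a fitted log2 fold change below 0 as labelled and 17 after the exchange and without R02046. Of all genes, 52.1% were below 0 as labelled, 49.8% after the exchange and 50.5% without R02046. None of the 18 passed an adjusted p of 0.05 in edgeR. At an unadjusted p under 0.05, 2 of 18 were lower as labelled, 13 after the exchange and 12 without R02046, beside the shares of all genes given for the members. At that level 0 targets were higher as labelled and 1 was higher after the exchange and without R02046. It was GADD45B, a stress response gene named here after its values were seen, at 0.60 (SE 0.55, edgeR adjusted p = 0.906) as labelled, 1.24 (SE 0.33, edgeR adjusted p = 0.128) after the exchange and 1.22 (SE 0.43, edgeR adjusted p = 0.318) without R02046. The median over the list was -0.31 as labelled, -0.51 after the exchange and -0.56 without R02046. Examples after the exchange were CCL20, a chemokine, at -0.86 (SE 0.31, edgeR adjusted p = 0.222), IER3, an early response gene, at -0.80 (SE 0.22, edgeR adjusted p = 0.141), and BIRC3, an inhibitor of apoptosis, at -0.62 (SE 0.12, edgeR adjusted p = 0.0629). CCL20 did not reach 10 counts in every library.

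P2RY6, the receptor that MRS2578 blocks, was at 69.1, 52.6, 68.0 and 98.5 CPM with uLPS and at 52.0, 49.5, 79.9 and 110 CPM with uLPS + MRS2578 in R07110, R12016, R02046 and R14143. Its fitted log2 fold change was -0.03 (SE 0.13, 95% confidence interval -0.33 to 0.28, edgeR adjusted p = 0.986) as labelled, -0.14 (SE 0.11, edgeR adjusted p = 0.570) after the exchange and -0.11 (SE 0.13, edgeR adjusted p = 0.769) without R02046. An antagonist acts on the receptor protein, so the transcript does not check whether the receptor was blocked.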

How the data were processed

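RNA from 8 cultures of microglia was sequenced as directional poly(A) libraries, 1 for each of 4 donors and 2 conditions. The deposited values are raw counts of uniquely mapped reads within exons per Ensembl gene, made by the authors without normalization. The methods name fastp 0.20, STAR 2.5.4, SAMtools 1.10 and HTSeq 0.11.0, while the submitters' processing notes name Trimmomatic 0.30, TopHat2 2.0.14, SAMtools 1.3 and HTSeq 0.6.1p1, both for Mmul_10. M-CSF was at 10 ng/mL in the labels and at 20 ng/mL in the methods. The strand setting and the annotation release are not given in the sources used here. Reads with more than 1 mapping place were not counted.

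The counts were analysed in R 4.3.3 with edgeR 4.0.16, using filterByExpr (minimum count 10), TMM scaling and quasi-likelihood F-tests blocked by donor. p-values were adjusted by Benjamini-Hochberg over all genes tested, with a threshold of 0.05, and the SE was derived from the F statistic. A prior count of 2 was used for log2 CPM. Both libraries of a donor came from 1 animal, and their deviations from the condition means correlated at 0.458 to 0.602 across genes. Each condition has 1 culture per donor. A count of 3, the limit that a count of 0 allows, is 0.0915 to 0.325 CPM, which covers counting error only. The counts of every pair of libraries differed by more than sampling noise, and the labels name no sequencing batch. The fits were tried on simulated data without differences between donors and with changes larger than the fitted changes of the members. That trial does not show how well changes of the members' size would be found.

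The alternatives were DESeq2 1.42.0 and its size factors, edgeR's likelihood ratio test and its legacy quasi-likelihood estimation, other count filters, no block, each donor left out, other gene lengths, and the exchange of the R02046 libraries. The legacy estimation, the coding length, the background of non-overlapping genes and the separate NXPE3 row were chosen after the data were seen. The members and gene lists were chosen with earlier results of these data known. All 10 members are named, and from other lists those past the threshold and up to 4 with the largest change in 1 direction in all donors. Gene positions and lengths come from the NCBI annotation of Mmul_10. Protein sequences were not used here. The window before RELB is not reported here.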

Additional observations from a re-analysis of the deposited data

Results flagged for a closer look

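The within-donor difference of P2RY6 (log2 CPM, uLPS + MRS2578 minus uLPS) was -0.41 in R07110 and -0.09 in R12016, the males, and 0.23 in R02046 and 0.16 in R14143, the females. The means were -0.25 for males and 0.19 for females, 0.44 apart, and this difference was not tested. It is listed because the 2 donors of each sex lay on opposite sides of 0, which depends on the labels of R02046: with its libraries exchanged, R14143 alone is above 0. No single library stood apart from the other 3 of its condition for any member by Dixon's criterion. With 4 values its critical value is 0.829, so it can flag only a very distant library. The R02046 library labelled uLPS was the lowest of all 8 for 5 members.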

How the results depend on the processing

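Over 15 alternatives for each of the 9 members, 127 of 135 values kept their direction and their side of the threshold. The following settings carried the rest. With the R02046 libraries exchanged and R14143 left out, NFKB1 (-0.57, edgeR adjusted p = 0.0204), NFKB2 (-0.55, edgeR adjusted p = 0.0203) and REL (-0.65, edgeR adjusted p = 0.0447) passed and NFKBIB was at 0.060. With that exchange and R12016 left out, NFKBIE was at 0.059. As labelled, REL ran from -0.37 to 0.17 with 1 donor left out, above 0 without R07110 (0.024) and without R12016 (0.17), and NFKBIE ran from -0.069 to 0.049, above 0 without R12016. The cause was not tested.

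Genes called across the whole table numbered 1 with DESeq2, 5 with the likelihood ratio test and 75 after the exchange, and, after the exchange, 0 without R07110, 5 without R12016 and 918 without R14143. The 75 and the 918 thus depended on which donors entered. As labelled, 0 genes passed without any 1 donor, and 0 passed without the replicate block (250 at an unadjusted p under 0.05), so the pairing by donor changed no call in edgeR. Members lower in every donor numbered 7 after the exchange and after the exchange with any other donor left out, and 0 to 7 as labelled with 1 donor left out, with 7 without R02046 and 1 without R07110.

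The median of subunits minus that of inhibitors was -0.14 as labelled, -0.32 after the exchange and -0.22 without R02046, but 0.02 without R12016. The mean ratio of median subunit to median inhibitor levels ran from 0.852, with uLPS + MRS2578 after the exchange, to 1.21, with uLPS without R02046, both per coding length. The 95% interval of REL was -0.69 to 0.57 as labelled and -0.88 to -0.13 after the exchange, so what it excludes depends on those labels.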
